A study of Mus musculus with 4 samples.

Results

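The transcripts described here are those of the interleukin-6 family: the ligands Il6, Il11, Lif, Osm and Clcf1 and the receptor chains Il6ra, Il11ra1, Il6st, Lifr and Osmr. A probe was included when its gene name in the array design was one of these 10 genes, which gave 12 of 55670 usable probes, 1 per gene except for 3 probes of Lifr. The study compared NIH3T3 cells, fibroblasts of a line started from mouse embryos, with wild-type EGFR and with a deletion mutant of EGFR, the receptor tyrosine kinase for epidermal growth factor. There were 2 arrays per group, from cells at steady state with no treatment named. The labels do not give the extent of the deletion, the species of the receptor, how it was introduced or whether the cells are 1 clone. They describe repeated cDNA syntheses and no separate cultures, so the p-values reflect array-to-array spread alone, and that spread may be technical. The 4 arrays shared 1 slide with each group in a column of its own, and column and group cannot be told apart.

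Cytokines of this family signal through gp130, the shared chain encoded by Il6st. IL-6 and IL-11 first bind a chain of their own, Il6ra or Il11ra1, and then 2 gp130 molecules. LIF uses gp130 with the LIF receptor, CLCF1 needs the CNTF receptor chain besides both, and oncostatin M uses gp130 with the oncostatin M receptor. The receptors activate JAK kinases and the transcription factor STAT3, and SOCS proteins limit the signal. Fibroblasts are known as sources of IL-6, IL-11 and LIF and respond to oncostatin M.

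Values are processed signals in intensity units, or log2 signals relative to the 75th percentile of the same array, which was 327 to 366.6 units. On an array 42.9% to 46.9% of probes were well above background, the scanner software's mark for a spot that exceeds its background, and no spot was saturated. A gene was tested when, in 1 group or both, the same probe of it was well above background on each array. In all, 18093 features (genes, each by its brightest such probe, or unnamed transcripts) were tested with limma at an adjusted p of 0.05. Of these, 58.8% passed, 34.6% higher and 24.2% lower in deletion-mutant cells, and 13.4% passed with a change of at least 2-fold (5.94% higher, 7.46% lower). The share of calls that were higher was 58.9%, against 73.5% under median scaling and 38.9% under the 75th percentile of the probes detected on all arrays, which shift log2 fold changes by 0.18 and -0.19. All 10 fibroblast markers examined, among them Col1a1, Vim and Pdgfra, were well above background on every array, with a summed signal of 2020 and 2084 times the 75th percentile in wild-type and 1475 and 1516 times in deletion-mutant arrays. Of 9 leukocyte markers 5 were (Csf1r, Itgam, Cd68, Cd14 and Cd3e), with sums of 37.9 and 39.9 against 25.7 and 25.8. Itgam, the brightest probe of the list, was lower (5.10 to 4.18, log2), Cd14 was 5.59-fold higher, and Csf1r, Cd68 and Cd3e did not pass, while Ptprc, Emr1 and Lyz2 were among those that were not on any array. Of 6 endothelial markers 2 (Pecam1 and Kdr) were above background on every array, with sums between 6.59 and 7.14. Of 6 epithelial markers 1 to 3 were above background on an array. Their sums were 0.454 and 0.369 in wild-type and 0.602 and 0.622 in deletion-mutant arrays. By its brighter probe Krt8 was well above background in the deletion-mutant arrays alone, and Krt14 was lower there. These sums take the brightest probe of each gene. The other Itgam probes read 14.7 to 68.5 units, and neither was well above background on every array. For Cd68, Kdr and Csf1r 1 further probe each was not well above background on any array, while another Csf1r probe was on every array. The part of these marker differences in the results was not tested. In a whole-culture extract, fewer cells of a kind and less RNA per cell cannot be told apart.

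The ligands well above background in both groups, Il11 and Clcf1, were higher in deletion-mutant cells, while most receptor chains were lower. Of the 5 receptor chains 4 (Osmr, Il11ra1, Il6st and Lifr) were lower and Il6ra was higher. Of the 10 genes 8 were tested and all 8 passed, 3 higher and 5 lower, where 58.8% of all features passed. These genes and the lists below were chosen with earlier results of these data known. Their shares beside those of all features are therefore no measure of how unusual they are. Il6 met the background filter through its wild-type arrays alone, and the other 7 were well above background on all 4 arrays. Of these 7, 4 (Il11, Clcf1, Osmr and Il11ra1) changed by at least 2-fold, where 13.4% of all features passed with such a change. Lif and Osm did not meet the background filter and were not tested.

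**Figure D1:**
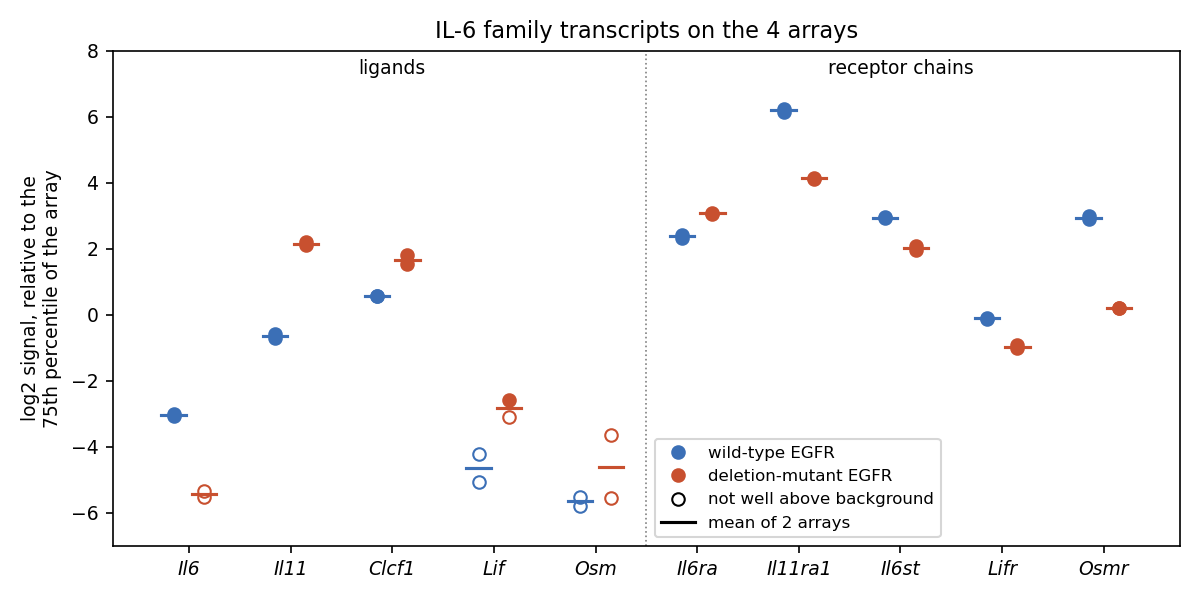
Log2 signal relative to the array's 75th percentile for each of the 10 genes (brightest probe), with 1 point per array, wild-type EGFR in blue and deletion-mutant EGFR in red, open where the spot was not well above background, and a bar at the mean of the 2 arrays. Il11 moves up from -0.65 (wild type) to 2.15 (mutant) and Osmr down from 2.95 to 0.21, and heights of different genes are not comparable because each probe has its own brightness.

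Il11 encodes interleukin-11, a secreted cytokine of stromal cells, and had the largest rise among the 7 genes well above background in both groups. Its probe (chromosome 7, 4724847 to 4724906, mm9) read 211 and 244 intensity units in the wild-type arrays and 1413 and 1606 in the deletion-mutant arrays. Both deletion-mutant arrays lay far above both wild-type arrays. The mean log2 signal rose from -0.65 ± 0.088 to 2.15 ± 0.055 (SD, n = 2 each), a 6.95-fold rise (log2 fold change 2.80 ± 0.074 SE, limma adjusted p = 0.000213). By size of change Il11 ranked 269th of the 18093 features.

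Clcf1, cardiotrophin-like cytokine factor 1, is a ligand that signals through gp130 and the LIF receptor together with the CNTF receptor chain, Cntfr. Its probe (chromosome 19, 4222480 to 4222539) read 514 and 542 units in wild-type and 1134 and 1020 in deletion-mutant arrays. The groups did not overlap, and the deletion-mutant arrays differed more between themselves (SD 0.18, log2) than the wild-type arrays (SD 0.0086). Clcf1 was 2.14-fold higher (1.09 ± 0.105 SE, adjusted p = 0.00207). Without deletion-mutant replicate 1 the change was 0.96 and without replicate 2 it was 1.22.

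Il6, the founding cytokine of the family, was weakly detected in wild-type cells and not well above background in deletion-mutant cells. The probe is spotted at 2 places on each array (chromosome 5, 30346367 to 30346426). The paired spots read 34.4 and 48.9 units and 43.4 and 47.2 units on the wild-type arrays, and 6.97 and 7.25, then 8.49 and 8.74 on the deletion-mutant arrays. The spots of both wild-type arrays were brighter than those of both deletion-mutant arrays. Il6 was tested only because its wild-type spots were well above background, so this separation is no separate support for a fall. Only a bound of the fold is measured. It sets the wild-type mean against the dimmest probe that still counted as above background on each deletion-mutant array. By this bound Il6 was at least 1.29-fold lower. The limma test (adjusted p = 0.000308) is of the fitted difference, not of the bound, and uses deletion-mutant signals that were not well above background. That fitted log2 difference of -2.39 ± 0.082 SE became -0.47 with normexp background correction, whose offset of 50 is larger than every Il6 signal here.

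Lif, leukemia inhibitory factor, read 18.6 and 11.0 units on the wild-type arrays and 54.7 and 41.0 on the deletion-mutant arrays (chromosome 11, 4172032 to 4172091). Of these spots 1, on deletion-mutant replicate 1, was well above background. The deletion-mutant values were the higher ones on both arrays. Without the background filter the fitted change was 1.80 ± 0.392 SE and did not pass (adjusted p = 0.0678). Osm, oncostatin M, which is made mainly by leukocytes, was not well above background on any array. It read 6.23 and 8.0 units in wild-type and 6.94 and 27.9 in deletion-mutant arrays (chromosome 11, 4140146 to 4140205), so the groups overlapped. The Lif and Osm probes lie 31.9 kb apart on chromosome 11.

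Promoter windows from RefSeq (GRCm38.p6) were available for 8 of the 10 genes, 11 windows in all. For 3 ligand genes, Il6, Il11 and Lif, the window that holds a match to the AP-1 motif is shown. Of the AP-1 subunit genes examined, Fosl1 and Jun rose, Junb did not pass and Fos was not tested. Whether AP-1 has a part in the changes of the ligands was not tested. Capitals mark matches to the motifs of AP-1 (TGANTCA), C/EBP (TTNNGNAA) and NF-kB (GGGA and TTCC with any 2 bases between), searched on both strands in the 250 bases before the start. The Il6 window is chr5:30012864-30013113 on the plus strand, the Il11 window is chr7:4778142-4778391 on the minus strand and the Lif window is chr11:4257318-4257567 on the plus strand.
Il6: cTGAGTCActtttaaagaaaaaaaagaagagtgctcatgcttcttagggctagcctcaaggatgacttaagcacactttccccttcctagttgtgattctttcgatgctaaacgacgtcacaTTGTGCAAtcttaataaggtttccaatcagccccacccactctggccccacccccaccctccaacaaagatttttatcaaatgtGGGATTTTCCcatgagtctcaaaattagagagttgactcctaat
Il11: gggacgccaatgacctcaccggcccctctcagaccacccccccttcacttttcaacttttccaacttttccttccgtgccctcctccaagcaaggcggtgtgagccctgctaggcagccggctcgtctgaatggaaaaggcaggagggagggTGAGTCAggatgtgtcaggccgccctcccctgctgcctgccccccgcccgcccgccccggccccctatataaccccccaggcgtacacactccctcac
Lif: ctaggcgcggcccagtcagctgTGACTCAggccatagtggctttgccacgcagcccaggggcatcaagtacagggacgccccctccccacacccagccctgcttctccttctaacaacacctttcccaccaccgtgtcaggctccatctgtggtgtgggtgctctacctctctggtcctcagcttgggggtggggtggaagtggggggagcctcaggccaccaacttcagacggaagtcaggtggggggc
The Il6 window held 1 match each to AP-1, C/EBP and NF-kB, beginning 249, 128 and 44 bases before the start. The AP-1 match began 98 bases before the start in this Il11 window and 228 bases before it in the Lif window. A second Il11 window, for a start farther upstream, held none of the 3 motifs. No AP-1 or NF-kB match was found in the 7 windows of the receptor genes Il6st, Il6ra, Lifr, Osmr and Il11ra1, and the 2 C/EBP matches among them were both in Il6ra. Of all 32851 windows of this length 6.75% held the AP-1 motif, 36.8% the C/EBP motif and 1.21% the NF-kB motif. A STAT motif (TTCNNNGAA, in 7.02% of all windows) was in none of the 11. A match describes letters and does not show that a factor binds there.

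Osmr, the signalling chain for oncostatin M, had the largest fall among the 7 genes well above background in both groups. Its probe (chromosome 15, 6763686 to 6763745) read 2583 and 2902 units in wild-type and 379 and 409 in deletion-mutant arrays. The groups were far apart, at 2.95 ± 0.056 (SD, n = 2) and 0.21 ± 0.0017 on the log2 scale. Osmr was 6.64-fold lower (-2.73 ± 0.060 SE, limma adjusted p = 0.000172) and ranked 298th of all features by size of change. Its ligand Osm, by contrast, stayed at background throughout.

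Il11ra1, which binds interleukin-11, was lower where its ligand was higher. The probe (chromosome 4, 41716285 to 41716344) read 24434 and 27549 units in wild-type and 5662 and 6225 in deletion-mutant arrays, without overlap. It was 4.17-fold lower (-2.06 ± 0.062 SE, adjusted p = 0.000261). The 4 RefSeq accessions that the array design gives for this probe belong to Il11ra1 and to its near-identical copy Gm13305, so the probe cannot separate these genes.

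Il6st, the gp130 chain that all these receptors share, read 2689 and 2787 units in wild-type and 1284 and 1481 in deletion-mutant arrays (chromosome 13, 113296586 to 113296645). Both deletion-mutant values were lower, by 1.90-fold (-0.92 ± 0.065 SE, adjusted p = 0.0011). Il6ra, the chain that binds IL-6, was the one of the 5 receptor genes that rose. It read 1858 and 1845 units in wild-type and 2769 and 2939 in deletion-mutant arrays (chromosome 3, 89674054 to 89674113) and was 1.61-fold higher (0.69 ± 0.064 SE, adjusted p = 0.00195).

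Lifr, the LIF receptor, was measured by 3 probes that did not give the same picture. The brightest (chromosome 15, 7147319 to 7147378) read 315 and 344 units in wild-type and 171 and 175 in deletion-mutant arrays, a 1.81-fold fall (-0.86 ± 0.061 SE, adjusted p = 0.00111). A second probe, at 7141150 to 7141209, was near background with 31.7 and 36.1 against 27.4 and 55.0 units, so that the groups overlapped, and with every probe tested by itself it did not pass (0.27 ± 0.321 SE, adjusted p = 0.517). The third, at 7135072 to 7135131 and designed on another RefSeq transcript, was not well above background on any array. With the 2 kept probes averaged, the change of Lifr was -0.30 and did not pass (adjusted p = 0.171). The Lifr and Osmr probes are 384 kb apart, and no probe of another tested feature lies between them.

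**Figure D2:**
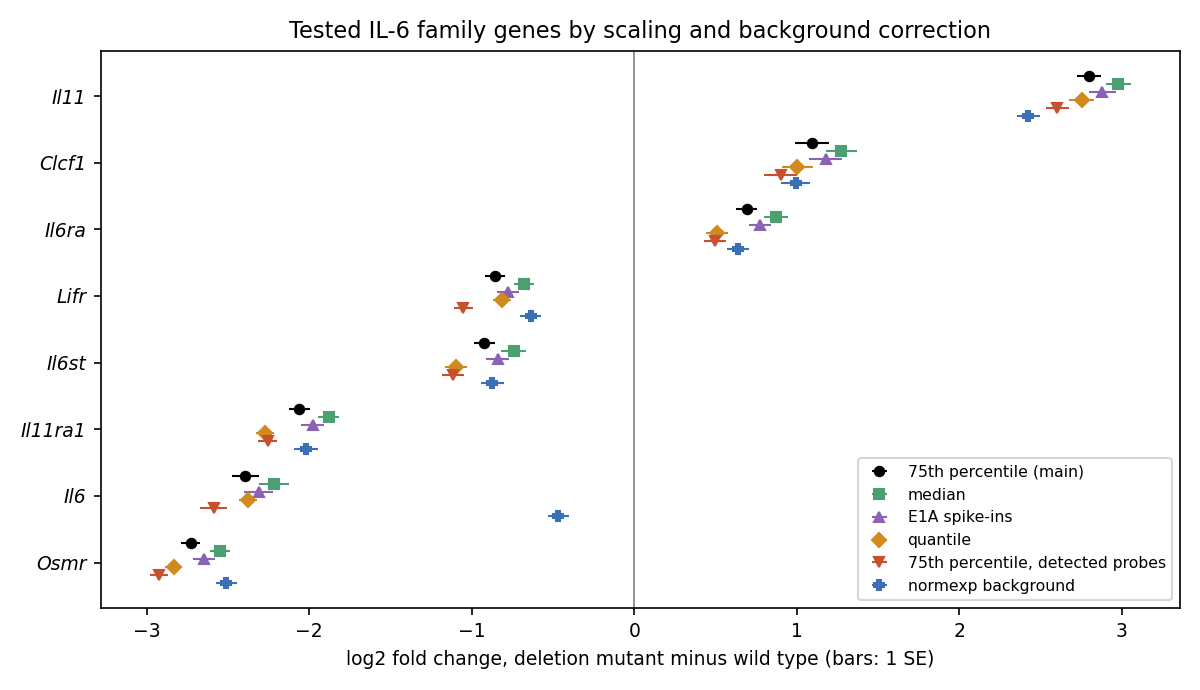
Log2 fold change (deletion mutant minus wild type, bars 1 SE, n = 2 arrays per group) of the 8 tested genes under the 75th percentile and 5 alternatives of scaling or background correction. Every gene keeps its side of 0, from 2.42 to 2.98 for Il11 and from -2.92 to -2.51 for Osmr, while Il6 moves from -2.39 to -0.47 with normexp correction.

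All 8 tested genes kept their direction and their call under the 5 other scalings (the deposited log2 values included), which move the median feature by at most 0.19 in log2. Such a shift is small beside the fitted difference of Il6, which was tested through its wild-type arrays alone, so its unchanged call adds little. The smallest change, that of Il6ra, lay between 0.50 and 0.87 over these scalings.

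Among 11 further genes of the family, 10 were on the array under their name and 4 were tested. Of these 4, 1 was higher, 2 were lower and 1 did not pass, where 34.6% of all features were higher and 24.2% lower. Ctf1, cardiotrophin-1, which signals through the LIF receptor and gp130, was 1.83-fold lower (-0.87 ± 0.056 SE, adjusted p = 0.000914). Cntf, ciliary neurotrophic factor, was 1.26-fold higher (0.34 ± 0.064, adjusted p = 0.0129), a call that was lost under detected-probe scaling (adjusted p = 0.103), with its probes averaged (0.189), without the background filter (0.0922) and without wild-type replicate 1 (0.0636). Il27, the p28 subunit of IL-27, had a change of -0.0036 ± 0.058 SE (adjusted p = 0.961) and passed as lower under detected-probe scaling (-0.20, adjusted p = 0.048). Ctf2, Ebi3, Il31 and the receptors Cntfr, Il27ra and Il31ra were not well above background on any array, and Il11ra2 is not a name of the array design.

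Downstream of the receptors, Stat3 was lower, and Socs1, Socs2, Socs3 and Socs6 were at least 2-fold higher by their brightest probes. In the list of kinases, STATs and adaptors 10 of 12 genes were tested, 2 were higher, 4 lower and 4 did not pass. That is 60% passing, near the 58.8% of all features, with a median log2 fold change of -0.08 against 0.07. Stat3, the main transcription factor of the pathway, was 3.43-fold lower (3.86 ± 0.018 SD with wild-type EGFR, 2.08 ± 0.016 with the mutant, adjusted p = 0.000269), and its second probe was lower too (-1.34 ± 0.108 SE). Stat5a was 3.43-fold lower as well (-1.78 ± 0.057 SE), and its probe lies 3.23 kb from the brighter Stat3 probe on chromosome 11. The adaptor Grb2 (0.62 ± 0.061) and the phosphatase Ptpn11, or SHP2 (0.31 ± 0.055), rose, while the adaptor Shc1 (-0.43 ± 0.076) and Stat5b (-0.33 ± 0.085) fell. The kinases Jak1 (0.25 ± 0.083), Jak2 (-0.075 ± 0.062) and Tyk2 (-0.051 ± 0.109) and the adaptor Gab1 (-0.083 ± 0.094) did not pass. Gab2 was among the genes that did not meet the background filter. Under median scaling 3 were higher and 2 lower, with Stat5b and Shc1 no longer passing, and with detected-probe scaling 1 was higher and 5 lower. The call of Ptpn11 was lost without wild-type replicate 1, and that of Stat5b without either wild-type array or deletion-mutant replicate 2.

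Inhibitors of JAK and STAT signalling were higher in 11 of 15 cases and lower in none, with a median of 0.49; 34.6% of all features were higher. Socs2 rose 3.48-fold (-2.85 ± 0.117 SD with wild-type EGFR, -1.05 ± 0.003 with the mutant), Socs1 2.53-fold (1.34 ± 0.059 SE), Socs6 2.45-fold (1.29 ± 0.070) and Socs3 2.20-fold (1.14 ± 0.054), each with an adjusted p between 0.000467 and 0.000666. SOCS1 and SOCS3 inhibit JAK kinases directly, and Socs3 is a known STAT3 target gene. All 3 Socs2 probes that met the filter were higher. The dimmer Socs6 probes that met it were higher too, but by 1.87-fold and 1.82-fold. The latter was well above background in the deletion-mutant arrays alone. The 4 genes that did not pass were Socs4 (0.39 ± 0.155), Cish (0.25 ± 0.140), Pias4 (0.18 ± 0.080) and Pias1 (-0.29 ± 0.094). Between 9 and 13 were higher under the other scalings, and Pias1 passed as lower under quantile normalization and detected-probe scaling. Without the background filter, which roughly doubles the features tested, 5 were higher.

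Of 17 genes known as targets of STAT3, 14 were tested, 8 were higher, 2 lower and 4 did not pass (median 0.38), where 34.6% of all features were higher and 24.2% lower. The chemokine Ccl2 rose 6.92-fold (3.29 ± 0.012 SD with wild-type EGFR, 6.08 ± 0.014 with the mutant, adjusted p = 0.000146), cyclin D1, Ccnd1, 6.36-fold (2.67 ± 0.062 SE), Vegfa 3.02-fold (1.60 ± 0.056) and Myc 2.13-fold (1.09 ± 0.065). These 4 are also known targets of growth factor signalling. The NF-kB cofactor Bcl3 (-0.50 ± 0.081) and the transcription factor Cebpd (-0.39 ± 0.056) fell, and Bcl3 did not pass without wild-type replicate 2 (adjusted p = 0.0512). Junb (0.42 ± 0.170), Cebpb (-0.12 ± 0.072), Bcl2l1 (0.30 ± 0.105) and Lcn2 (-0.32 ± 0.405) did not pass, and Fos, Saa3 and Steap4 were not tested. Lcn2 read 50.2 and 51.2 units in wild-type arrays and 55.8 and 26.9 in deletion-mutant arrays, and only the last was not well above background. Its negative change was larger without deletion-mutant replicate 1, a fit that rests on that last array alone for the mutant. Under the other scalings 6 to 10 of these genes were higher and 2 or 3 lower.

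Factors that control the transcription and decay of Il6 mRNA were higher in 9 of 14 cases and lower in 1, with 4 not passing (median 0.33), where 34.6% of all features were higher and 24.2% lower. The higher count depended on the scaling and fell to 4 with detected-probe scaling. Among them Fosl1, an AP-1 subunit, rose 7.49-fold (1.29 ± 0.014 SD with wild-type EGFR, 4.20 ± 0.037 with the mutant, adjusted p = 0.000146) and its partner Jun 3.34-fold (1.74 ± 0.077 SE). Arid5a, an RNA-binding protein known to stabilise Il6 mRNA, rose 4.85-fold (2.28 ± 0.077), while Il6 itself was lower. Zfp36l1 and Zfp36l2, related proteins that promote decay of AU-rich mRNAs, differed in opposite directions (-1.24 ± 0.068 and 0.65 ± 0.065). Zc3h12a, the ribonuclease Regnase-1 that degrades Il6 mRNA (-0.059 ± 0.092), Nfkb2 (0.16 ± 0.066), Nfkbiz (-0.39 ± 0.174) and Zfp36 (-0.77 ± 0.464) did not pass. The count of higher genes was 10 under median scaling, 5 under quantile normalization and 4 without the background filter. Without deletion-mutant replicate 1 the count of lower genes was 3, with Nfkbiz and Zfp36 added.

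The proteases that shed IL-6 receptor chains from the cell surface, Adam10 (-0.12 ± 0.065) and Adam17 (-0.093 ± 0.071), did not pass, although both passed as lower under detected-probe scaling. Of their regulators, Rhbdf1 rose 1.42-fold (0.51 ± 0.070, adjusted p = 0.00518) and Rhbdf2 fell (-0.34 ± 0.092, adjusted p = 0.0349), a call that was lost under median and spike-in scaling and without either wild-type array or deletion-mutant replicate 2.

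**Figure D3:**
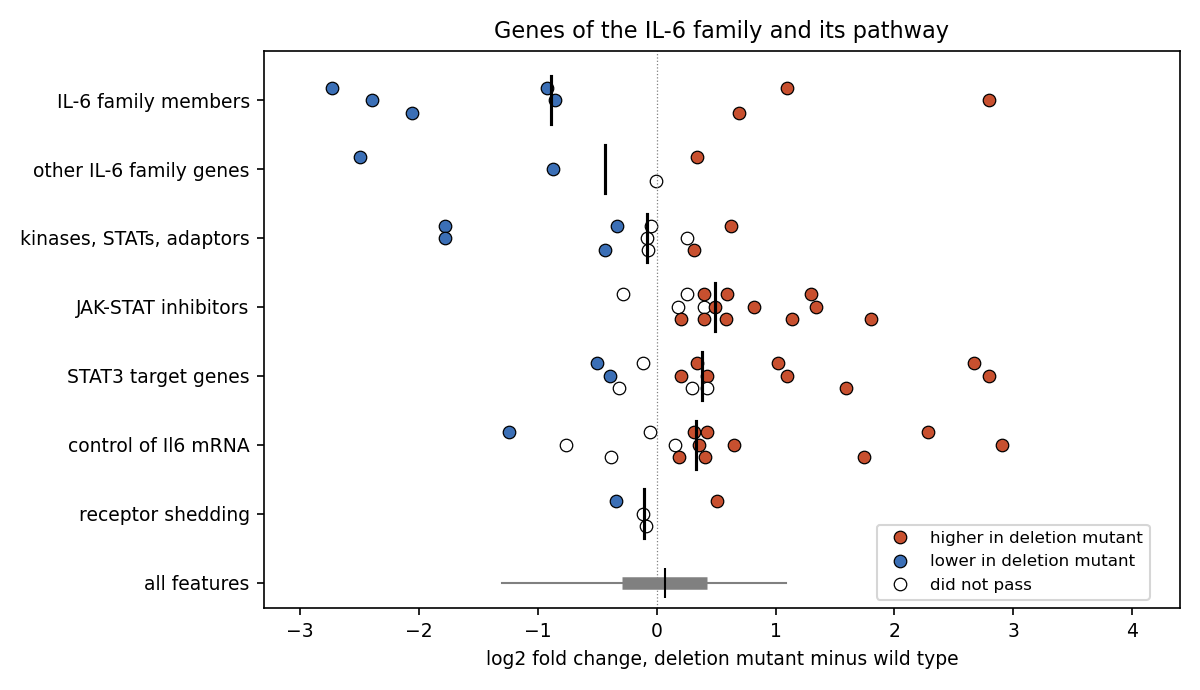
Log2 fold change (deletion mutant minus wild type) of each tested gene in the IL-6 family and 6 pathway lists, red where higher, blue where lower and white where the gene did not pass, with a vertical bar at the list median; the bottom line shows all 18093 features (median, 25th to 75th percentile as a thick bar, 5th to 95th as a thin line). Most JAK-STAT inhibitors lie right of 0 with a median of 0.49, while Stat3 and Stat5a share the leftmost position of their list at -1.78.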

How the data were processed

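Per the labels, total RNA of 4 samples (2 per group) was amplified and labelled with Cy3 for 1-colour Agilent arrays. Per the file headers, spots were read with Feature Extraction 10.10.1.1 (protocol GE1_1010_Sep10) and probes are placed on mm9. The deposited files give the processed signal of each spot as a linear intensity, already corrected for background and spatial trend, besides raw and background intensity and flags of 0 or 1, which per the file headers mark spots as well above background, saturated or uneven (other). The deposited log2 matrix differs from the log2 of these signals by a constant for each array (tolerance 0.01, 100% of probes), and the sources used here do not say how the authors set it.

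Flagged and control spots were left out, replicate spots were averaged as log2 values, and each array's 75th percentile was subtracted. A probe was well above background when at least 0.5 of its spots were. Groups were compared with limma 3.58.1 (lmFit, eBayes) in R 4.3.3 over 18093 features, with Benjamini-Hochberg adjustment and a threshold of 0.05. The fit had 2 residual and 2.18 prior degrees of freedom, and the number of arrays limits the precision. The procedure was also run on simulated data with independent noise and few changed features. That setting is unlike these data, where 58.8% of features passed, and it does not cover the choice of scaling. Figures used Python 3.11.15 and matplotlib 3.10.9.

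Members and lists were chosen with earlier results of these data known. All members are named, as are the further family genes except that some items are not reported here, and of each other list the 4 largest changes per direction that passed and the genes that did not pass where these were 5 or fewer. Alternatives were normexp (offset 50), quantile, median, spike-in and detected-probe scaling, the deposited log2 values, no or a stricter background filter, trended robust variances, averaged or separate probes, a replicate block, and leaving out each array. Exon or untranslated position of probes was not analysed here.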

Additional observations from a re-analysis of the deposited data

How the results depend on the processing

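The counts of 3 higher and 5 lower family members changed under none of the 16 alternatives, except that 4 were lower with averaged probes, where Lifr did not pass, and with a filter on all 4 arrays, which leaves Il6 out. With the replicate number as a block, 3 members were again higher and 5 lower and 9990 features passed in place of 10631. Deviations of same-numbered arrays from their group means correlated at 0.0472 over features. The labels do not say whether same-numbered arrays are paired. The correlation cannot decide it, because a pairing need not leave a deviation shared over features. Without the background filter 6466 of 34816 features passed; the cause was not tested. Leaving out 1 array gave 7815 to 9561 passing features and the same members in each direction. A fit without 1 array takes its spread from the other group alone. Over all alternatives that tested them, the 8 members had adjusted p-values from 6.02e-13 to 0.0255, apart from Lifr with averaged probes. No named gene that passed in the main comparison changed sign under an alternative. Signals of Il6, Lif, Osm and the dimmer Lifr probes lie near background, which limits their folds. Some other named genes were about as dim as Il6 in the wild-type arrays. There Socs2 read 45.0 and 53.7 units, Junb 39.9 and 56.9, and Zfp36 55.0 and 40.0, so their folds are limited too.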
